A study of Homo sapiens with 2 samples.

Results

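The antiviral interferon-stimulated genes described here are 39 genes named in advance as a list, and all 39 were found by symbol among the 19826 genes of the deposited count table. The table comes from MDA-MB-231, an established human triple-negative breast cancer line, grown as mammospheres, which are floating spheres of cells. Before that, 1 batch of cells was adapted in monolayer for 30 days in DMEM rich in glucose with no metformin (0 mM, called Wildtype in the labels), and the other with 2 mM metformin, a biguanide diabetes drug. Both were then kept as mammospheres for 10 days on low-attachment plates and taken apart with trypsin and EDTA. There is 1 library per dose, from 1 cell line, so no difference between doses has a replicate check and no test was run. The question put to the list was how strongly each gene was expressed at each dose, whether it was graded or on-off over single cells, and which members were expressed in the same cells.

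Interferon-stimulated genes are transcribed when type I or type III interferon binds its receptor and the kinases JAK1 and TYK2 activate a complex that holds STAT2 and IRF9. That complex binds the interferon-stimulated response element (ISRE) in promoters. Some of these genes are also switched on directly by the factor IRF3 after a cell senses viral or misplaced RNA or DNA. Their products sense foreign nucleic acid, bind or cut RNA, halt translation, or attach the ubiquitin-like protein ISG15 to other proteins. In tumours such a programme is known without any infection.

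After removing barcodes under 500 UMIs or 300 genes, 1000 cells with 4403045 UMIs were kept at 0 mM and 991 cells with 3264343 UMIs at 2 mM. A UMI, or unique molecular identifier, tags 1 captured transcript. The median was 3386 UMIs per cell at 0 mM and 2509 at 2 mM, and mitochondrially encoded transcripts took 5.49% and 5.38% of UMIs. No cell barcode was shared by the libraries, but within each of them many barcodes lay 1 base from another, and merging those left 931 and 883 cells. The label was checked on marker lists. Of 10 markers of the line, 9 were well detected, VIM with 14402 and 5210 UMIs and CD44 with 1640 and 855, whereas SPARC had 1 and 3 UMIs. The 8 luminal or epithelial markers had 3790 and 3281 UMIs in sum, with KRT18 at 1842 and 1529, KRT19 at 963 and 951, KRT8 at 766 and 606 and EPCAM at 126 and 139, but ESR1 and CDH1 at 2 and 0 each. For other cells, 4 of 8 leukocyte markers that are rows of the table had 103 and 88 UMIs (PTPRC 0 and 1), 2 of 5 of plasmacytoid dendritic cells 5 and 8, 7 of 7 of fibroblasts 18 and 22 and 1 of 5 of endothelium 4 and 12.

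Promoter sequences come first, because the results turn on genes that do or do not follow one another over cells. They are RefSeq sequences on GRCh38.p14, which is not the build used for counting (hg19), and 32 of the 39 members had one. Each window of 300 bases, from 250 before to 50 after the transcript start, was searched on both strands for the ISRE core, which is GAAA, any 2 bases and GAAA again. It was found in 18 of 32 members (56.2%) and in 3.65% of 27305 promoters of all genes. The core TTCNNNGAA of the gamma-activated site, an element of the interferon gamma response, was found in 7 of 32 members (21.9%) and in 7.88% of all promoters. The ISRE match is drawn in capitals below with up to 12 bases on each side, 5′ to 3′ on the strand of the gene and upstream of its start. ISG15, ISG20, IFIT1, IFIT3, HERC5 and DDX60 are shown as members whose mean differed at least 10-fold over cells in both libraries, as described further on, and IFIT5 and LGALS3BP because they hold the same core and differed far less.
ISG15 (chr1:1013372-1013411, plus strand): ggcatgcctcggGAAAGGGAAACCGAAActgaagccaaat
ISG20 (chr15:88638935-88638968, plus strand): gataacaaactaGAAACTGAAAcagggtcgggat
IFIT1 (chr10:89392495-89392541, plus strand): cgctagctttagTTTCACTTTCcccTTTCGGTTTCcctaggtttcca
IFIT3 (chr10:89327829-89327896, plus strand): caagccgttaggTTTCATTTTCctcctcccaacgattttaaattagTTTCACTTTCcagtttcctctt
HERC5 (chr4:88456982-88457066, plus strand): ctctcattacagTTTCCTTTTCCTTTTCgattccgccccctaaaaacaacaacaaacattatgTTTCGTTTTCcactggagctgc
DDX60 (chr4:168318784-168318852, minus strand): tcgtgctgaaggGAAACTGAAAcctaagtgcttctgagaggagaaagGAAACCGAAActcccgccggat
IFIT5 (chr10:89414511-89414567, plus strand): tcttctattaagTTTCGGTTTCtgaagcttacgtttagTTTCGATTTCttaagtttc
LGALS3BP (chr17:78979960-78979993, minus strand): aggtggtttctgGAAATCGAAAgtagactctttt
In the IFIT genes and HERC5 the core lies on the opposite strand and reads TTTC, 2 bases, TTTC. IFIT5 holds a match that crosses its start as well, which is not drawn. The capitals of ISG15 hold 2 overlapping matches, and the first run of capitals of HERC5 does too.

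Over all cells the listed genes were well expressed at both doses, and as a sum slightly lower at 2 mM. They took 37059 UMIs at 0 mM and 24062 at 2 mM. Per 1000000 UMIs of the library (CPM) this was 8417 CPM (95% Poisson interval 8331 to 8503) and 7371 CPM (7278 to 7465). The ratio of 2 mM over 0 mM was 0.876, with an interval of 0.862 to 0.890. The intervals given throughout reflect counting error alone, except the interval over genes of a median log2 ratio below. Those of UMI counts take each UMI as independent and leave out the spread over cells, so they are too narrow for genes clustered in few cells. UMIs were not divided by gene length, so levels of different genes are not compared. ISG15 alone supplied 26.2% of the members' UMIs at 0 mM and 21.6% at 2 mM, and without it the ratio was 0.930.

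A ratio was computed for genes reaching 50 CPM in 1 library or both with 50 or more UMIs in all, which 24 members passed and 15 did not. Past 1.5-fold, 0 members were higher at 2 mM and 1 was lower, beside 5.04% and 3.31% of the 4105 genes that passed. The median log2 ratio was -0.17 (interval over genes -0.37 to -0.04) for the 24 members and 0.02 for all genes. That interval takes members as independent, although many were expressed in the same cells, and it does not measure the spread between cultures. Of the 24, 18 had ratios below 1, where 47.4% of all genes did. With TMM factors, another way of scaling libraries, 21 members lay below 1 and 2 (ISG20 and LGALS3BP) above, and the median log2 ratio of all genes was -0.07. XAF1 fell under the minimum with these factors and left the set. The counting interval lay below 1 for 12 members and above 1 for 3, beside 23.4% and 27.1% of all genes. The share of members past 1.5-fold was thus close to that of all genes.

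**Figure D1:**
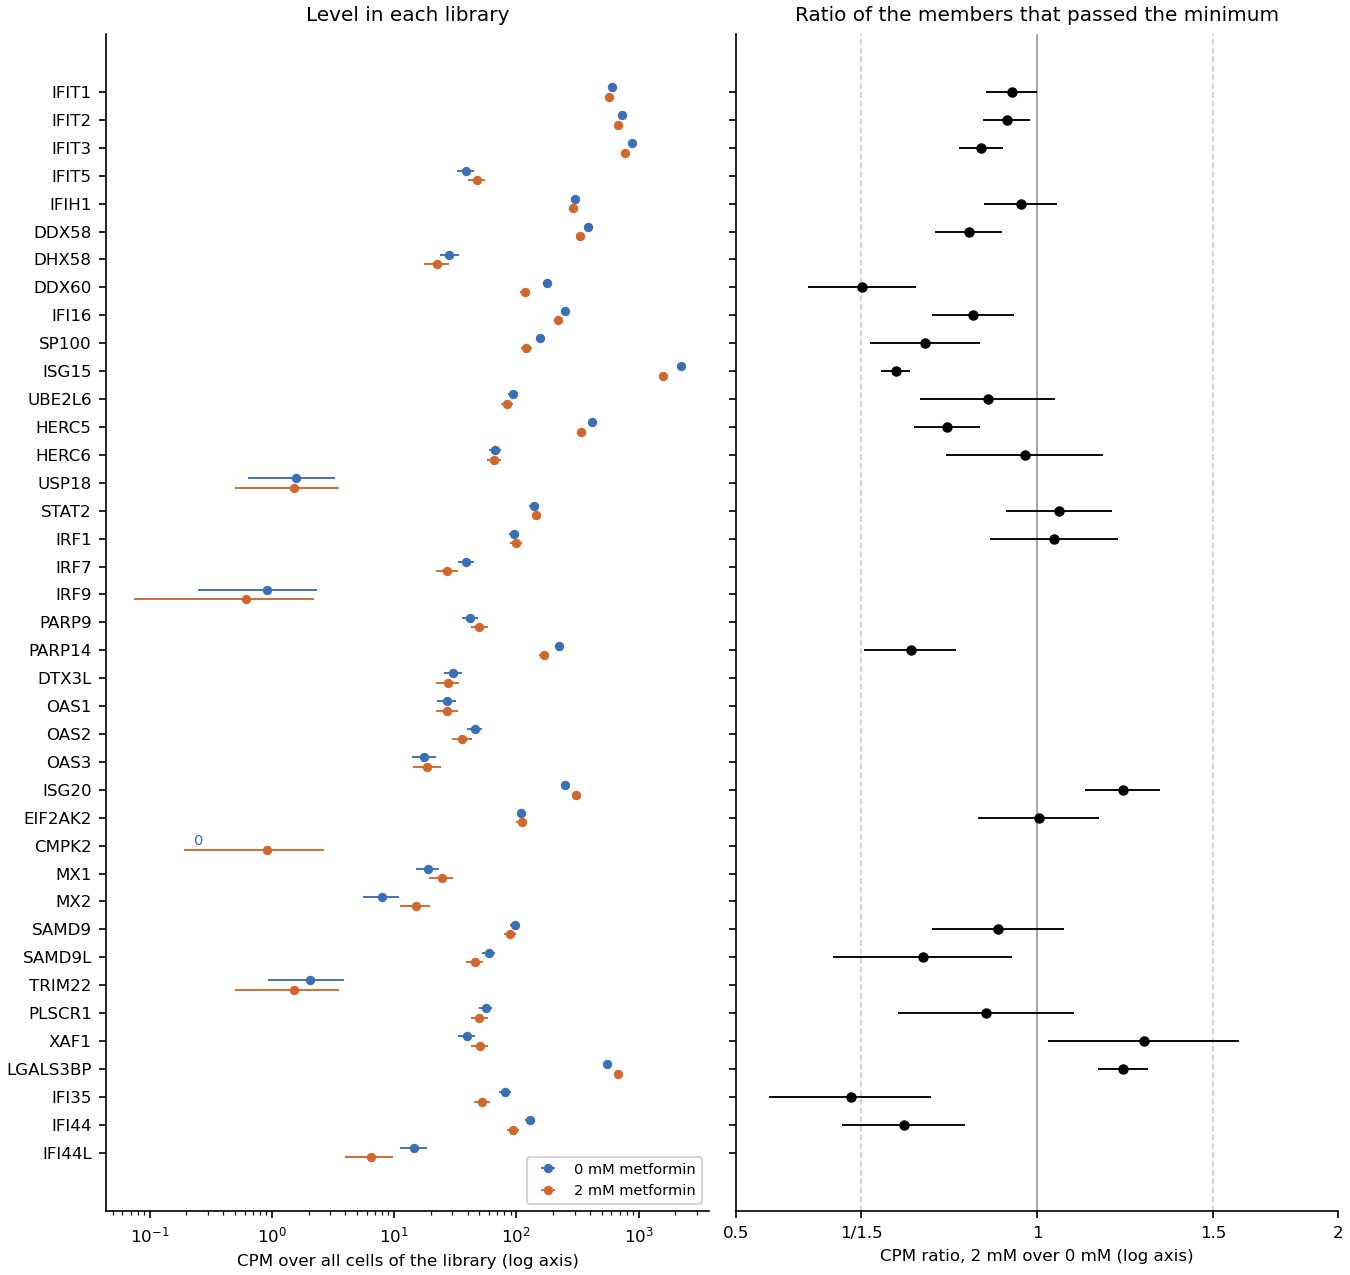
Level of the 39 members in each library, in CPM on a log axis with 95% Poisson intervals (left), and the ratio of 2 mM over 0 mM with its counting interval for the 24 members that passed the minimum (right; dashed lines mark 1.5-fold). Members are ordered by role, a 0 marks CMPK2 at 0 mM, and IFI35 is the one ratio left of the lower dashed line.

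The IFIT proteins bind viral RNA and block its translation. For IFIT1, 607 CPM were counted without the drug and 572 with it, with a ratio of 0.943 (0.888 to 1.001). IFIT2 had 726 and 677 CPM (0.932, 0.883 to 0.985) and IFIT3 878 and 771 CPM (0.879, 0.835 to 0.924). These 3 genes of a cluster on chromosome 10 thus differed by little between doses. IFIT5, the next gene to IFIT1 there, had only 170 and 155 UMIs (38.6 and 47.5 CPM), below the minimum.

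Among the RNA sensors, IFIH1 (MDA5), which detects long RNA duplexes, had 303 and 292 CPM with a ratio of 0.963 (0.885 to 1.05). DDX58 (RIG-I), which detects RNA with a free 5′ triphosphate, had 385 and 329 CPM (0.855, 0.791 to 0.923). The helicase gene DDX60 was lower, at 177 and 118 CPM, a ratio of 0.668 (0.590 to 0.756) that stops just short of 1.5-fold. DHX58 (LGP2), the regulator of both sensors, had 125 and 73 UMIs. The DNA sensor gene IFI16 had 252 and 218 CPM (0.863), and SP100, a component of PML nuclear bodies, 156 and 121 CPM (0.773, 0.682 to 0.876). All 5 sensor and nuclear body ratios therefore lay below 1, beside 47.4% of all genes. The ratio of IFIH1 had an interval that included 1.

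ISG15 itself was counted at 2208 CPM without the drug and 1594 CPM with it (0.722, 0.698 to 0.747). HERC5, the ligase that joins ISG15 to new proteins, had 413 and 336 CPM (0.813, 0.753 to 0.876). UBE2L6, the conjugating enzyme of the same path, had 94.0 and 83.9 CPM (0.893), with an interval of 0.764 to 1.04. HERC6, the neighbour and relative of HERC5, had 67.5 and 65.6 CPM (0.972), a log2 ratio of -0.04 that was 0.09 with cells weighted equally. USP18, the protease that removes ISG15 and damps interferon receptor signalling, had 7 and 5 UMIs in all. The modifier and its ligase were thus lower at 2 mM beyond counting error, whereas the intervals of UBE2L6 and HERC6 included 1.

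Of the signal transducers, STAT2 had 139 and 146 CPM (1.05) and IRF1, a factor induced by interferon gamma above all, 96.1 and 99.9 CPM (1.04). Both intervals included 1. With TMM factors both ratios lay below 1, and that of STAT2 did with cells weighted equally too. IRF7, the factor that amplifies interferon transcription, had 172 and 89 UMIs (39.1 and 27.3 CPM). IRF9, the DNA-binding part of the complex, had 4 and 2 UMIs. CMPK2, a mitochondrial nucleotide kinase, had 0 and 3 UMIs and TRIM22, a ubiquitin ligase acting on viral proteins, 9 and 5. A count of 3 corresponds to 0.681 CPM at 0 mM and 0.919 CPM at 2 mM, so these 4 genes lay at or near the limit of detection. Whether the annotation used for counting lowered their counts was not tested, so they cannot be read as low transcript levels.

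Of the ADP-ribosylation genes, PARP14 had 225 and 168 CPM (0.747, 0.672 to 0.830). PARP9 (41.8 and 49.9 CPM) and its partner DTX3L (30.4 and 27.6 CPM), adjacent genes on chromosome 3, were below the minimum. ISG20, an RNA exonuclease, was among the 3 members with an interval above 1, at 251 and 305 CPM (1.22, 1.12 to 1.33). Its log2 ratio of 0.28 was 0.11 with cells weighted equally and 0.10 once the 5% deepest barcodes were removed. EIF2AK2 (PKR), the kinase that halts translation on sensing RNA duplexes, had 110 and 111 CPM (1.004), below 1 with TMM factors and with cells weighted equally. The OAS enzymes, which make the messenger that activates RNase L, were sparse, with 119 and 89 UMIs of OAS1, 202 and 118 of OAS2 and 78 and 61 of OAS3. The MX GTPases, which trap viral nucleocapsids, were sparser, with 83 and 80 UMIs of MX1 and 35 and 49 of MX2. The CPM ratio of MX2 was 1.89 (1.20 to 3.002), from counts below the minimum.

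SAMD9 and SAMD9L, neighbouring genes on chromosome 7 that restrict poxviruses, had ratios of 0.914 (0.785 to 1.06) and 0.769 (0.625 to 0.944). PLSCR1, a phospholipid scramblase, had 56.1 and 49.9 CPM (0.890). IFI35 was the member past 1.5-fold, with 80.9 and 52.7 CPM and a ratio of 0.652 (0.540 to 0.784). Its log2 ratio of -0.62 was -0.56, short of 1.5-fold, once the 5% deepest barcodes were removed, and there DDX60 (-0.73 against -0.58) was the member past it. IFI44 was lower as well, at 129 and 94.7 CPM (0.736, 0.639 to 0.847). Its neighbour IFI44L had 64 and 21 UMIs, a CPM ratio of 0.443 (0.257 to 0.734), below the minimum. LGALS3BP, a secreted glycoprotein that binds galectin-3, was higher at 553 and 674 CPM (1.22, 1.15 to 1.29), and XAF1, a promoter of apoptosis, at 39.3 and 50.2 CPM (1.28, 1.03 to 1.59), a log2 ratio of 0.35 that was 0.07 with cells weighted equally. XAF1 reached 50 CPM only at 2 mM, and SAMD9L and PLSCR1 only at 0 mM, so each passed the minimum through its higher library alone.

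The members were far from evenly spread over cells. To compare cells of unequal depth, each was thinned at random to 1000 UMIs, which left 944 cells at 0 mM and 800 at 2 mM (56 and 191 shallower cells were left out). A cell then held a mean of 8.92 ± 12.1 member UMIs (SD over cells) at 0 mM and 6.93 ± 11.7 at 2 mM. At 0 mM the median was 4, the middle 50% of cells ran from 2 to 11 and the highest cell had 98. At 2 mM the median was 3, the middle 50% ran from 1 to 5 and the highest cell had 98 too. The variance was 16.4 and 19.8 times the mean, where cells that differ by sampling alone would give 1.

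Cells with 10 or more member UMIs are called rich here and cells with 0 to 4 poor. At 0 mM 28.4% of cells (exact binomial interval 25.5% to 31.4%) were rich and 52.9% (49.6% to 56.1%) poor. At 2 mM 17.6% (15.05% to 20.4%) were rich and 70.6% (67.3% to 73.8%) poor. Poisson counts of the same mean would give 40.2% and 16.3% rich, 5.78% and 17.9% poor. Without thinning, 62.4% and 42.4% of cells had 10 or more member UMIs. The rich cells held 74.0% and 69.9% of the members' UMIs. The thresholds bound a range of a continuous score and not a type of cell: 89 and 29 cells had 8 to 11 member UMIs.

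The difference between doses in the share of rich cells was -10.8 points, and the outer bounds of both share intervals give -16.3 to -5.09 points. At 500 UMIs per cell, where the same cut-off of 10 member UMIs is stricter, it was -1.70 points, with bounds of -5.83 to 2.45. The shares differed at the low end and in the middle of the scale. From 0 to 1 member UMIs there were 18.6% of cells at 0 mM and 29.0% at 2 mM, and from 2 to 4 there were 34.2% and 41.6%. From 5 to 9 member UMIs there were 18.75% of cells at 0 mM and 11.75% at 2 mM, and from 10 to 19 there were 15.3% and 6.63%. At 20 or more the shares were 13.1% and 11%, a difference of -2.14 points with bounds of -6.54 to 2.33 that include 0. In steps of doubling width, 191 cells at 0 mM had 4 to 7, 158 had 8 to 15 and 110 had 16 to 31 UMIs. At 2 mM these steps held 149, 56 and 63 cells. The last 2 of these, 7% (5.33% to 8.99%) and 7.88% (6.10% to 9.96%) of cells, did not differ beyond counting error, so no second peak can be called at 2 mM. Both libraries were thus spread without a gap from poor to rich cells. The 2 mM library had a larger share of poor cells and a smaller share in between.

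**Figure D2:**
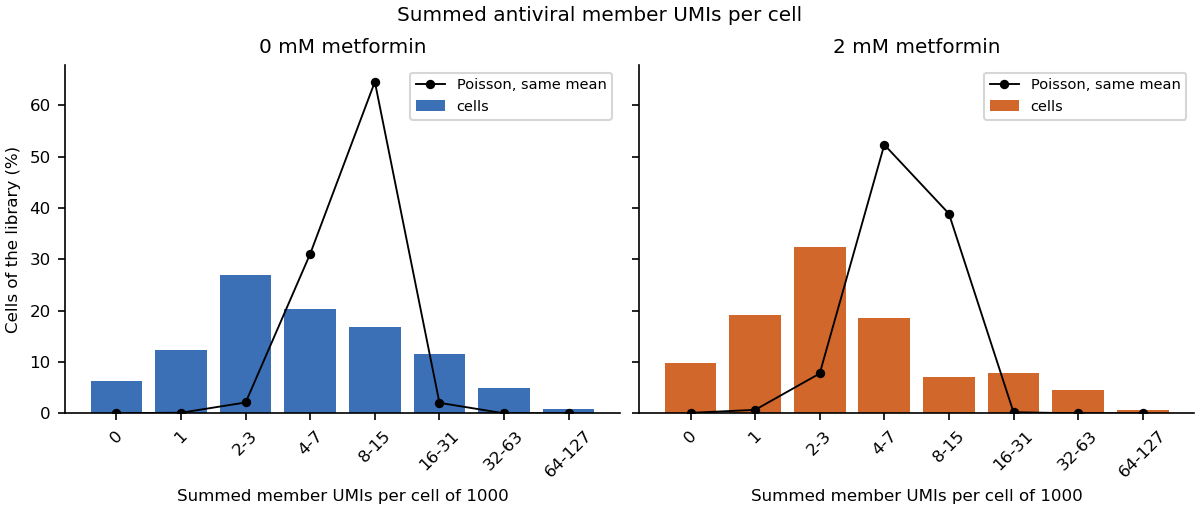
Share of cells in percent by summed member UMIs after thinning to 1000 UMIs, in steps of doubling width, for the 944 cells at 0 mM (left) and the 800 at 2 mM (right); black points give the shares of Poisson counts with the same mean. Both libraries are much broader than the Poisson counts, and from 8 to 15 UMIs the share is 16.7% at 0 mM and 7% at 2 mM.

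Other measures moved along the same scale. The mean sum of 15 G2/M transcripts was 6.5 UMIs in cells with 0 to 1 member UMIs and 2.31 in those with 20 or more at 0 mM, and 3.74 and 2.08 at 2 mM (medians 3 and 1, then 2 and 1). The median depth before thinning was 4593 and 3309 UMIs in the same ranges at 0 mM and 2935 and 3372 at 2 mM. Mitochondrial transcripts took 5.84% and 4.61% of UMIs, then 5.64% and 4.14%. The part of cycle, depth or mitochondrial share in the pattern was not tested. The line marker VIM was found throughout, at 3.26 and 2.55 UMIs per cell at 0 mM and 1.54 and 1.59 at 2 mM. The line marker CD44 was at 0.392 and 0.476 at 0 mM and at 0.129 and 0.443 at 2 mM.

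Single members followed the sum of the others to very different degrees. For each member the sum of the other 38 was taken, so that its own counts did not place a cell. Its mean in rich cells was divided by its mean in poor cells. The median of this rich-over-poor ratio was 7.46 at 0 mM and 8.73 at 2 mM over the 24 members, and 0.916 and 0.916 over all 4105 genes. It reached 2-fold in 18 members at 0 mM and 20 at 2 mM, beside 4.80% and 5.85% of all genes. It did so in both libraries for 17 members, beside 3.31% of genes. It reached 10-fold in both for 10 members, beside 0.512% of genes.

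These 10 were IFIT1, IFIT2, IFIT3, ISG15, ISG20, HERC5, HERC6, IFIH1, DDX58 and DDX60. IFIT1 had a mean of 0.0904 UMIs in poor and 2.05 in rich cells at 0 mM, a ratio of 22.7 (16.8 to 31.4), and 0.0387 and 2.79 at 2 mM, giving 72.1 (47.0 to 116). IFIT3 had ratios of 22.4 (17.3 to 29.5) and 48.6 (35.2 to 68.6). IFIT3 was seen in 10.5% of poor and 73.6% of rich cells at 0 mM, and in 6.49% and 76.1% at 2 mM. ISG15 had ratios of 13.2 (11.6 to 14.996) and 21.6 (18.6 to 25.3), and was seen in 27.9% and 21.1% of poor cells against 93.0% and 94.2% of rich ones. A single cell held up to 40 UMIs of ISG15 among its 1000 at 0 mM and up to 27 at 2 mM.

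The path from poor to rich differed among these members. ISG15 had means of 0.406, 0.625, 2.42, 5.85 and 9.47 UMIs per cell at 0 mM in cells with 0 to 1, 2 to 4, 5 to 9, 10 to 19 and 20 or more UMIs of the others. At 2 mM the same ranges gave 0.207, 0.436, 1.96, 5.05 and 9.70. IFIT2 went from 0.115 to 3.96 at 0 mM and from 0.0579 to 4.04 at 2 mM. IFIH1 stayed low for longer, at 0.0389, 0.0648 and 0.0747 in the first 3 ranges at 0 mM, then 0.490 and 1.34. DDX60 levelled off early, with 0.314, 0.529 and 0.533 in the last 3 ranges at 0 mM and 0.185, 0.529 and 0.430 at 2 mM. In the 5 to 9 range at 0 mM, DDX60 was thus at 0.314 with 0.533 at the top, and IFIH1 at 0.0747 with 1.34 at the top.

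**Figure D3:**
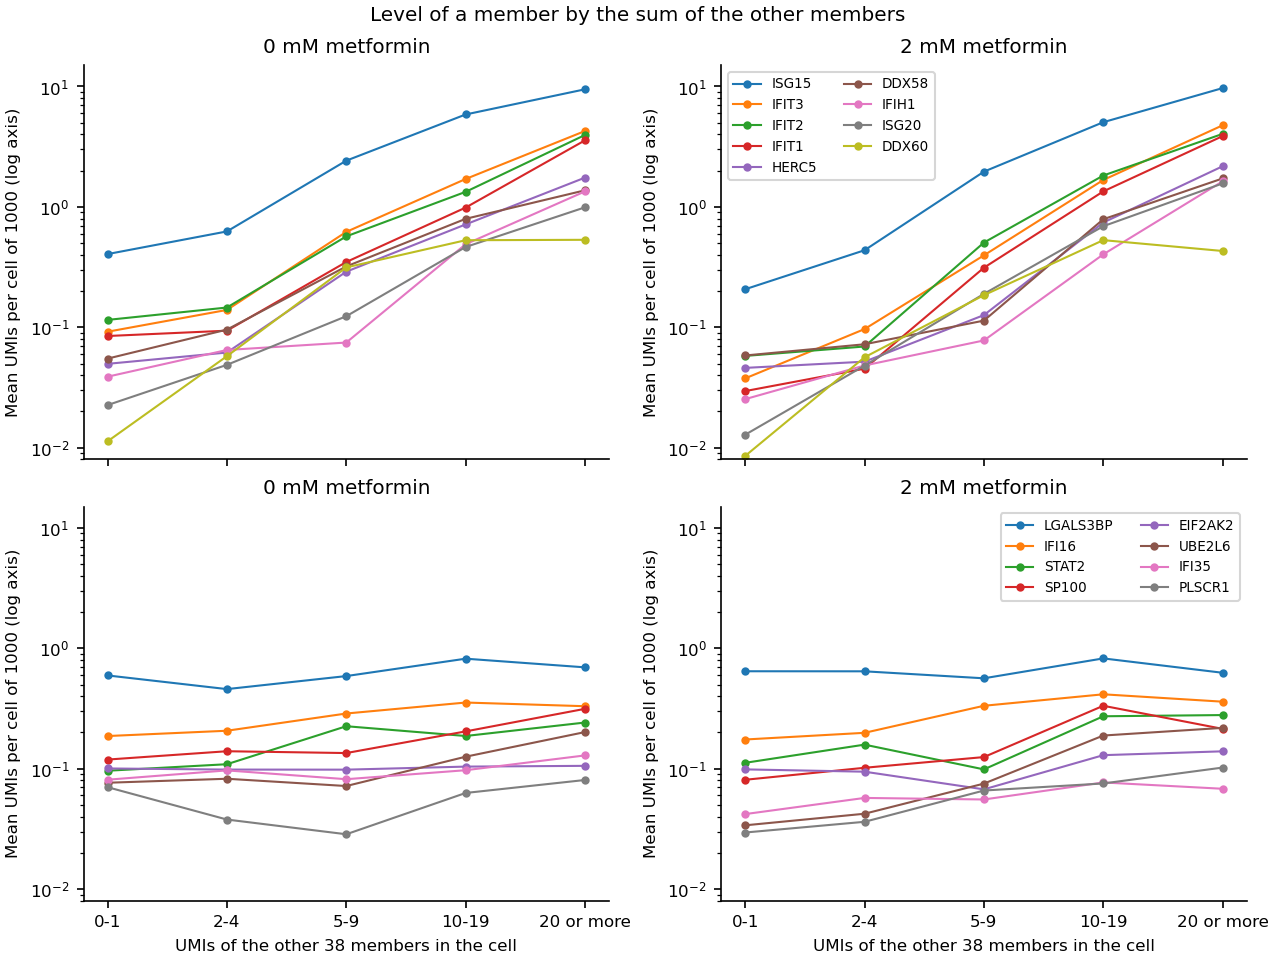
Mean UMIs per cell of 1000 (log axis) of 17 members, chosen after their values were seen, by the UMIs of the other 38 members in the cell, at 0 mM (left) and 2 mM (right). The 9 members of the upper panels climb across the ranges, ISG15 from 0.406 to 9.47 at 0 mM, and the 8 of the lower panels change less, LGALS3BP between 0.458 and 0.820 at 0 mM.

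Between these ends, IFI44 had ratios of 8.61 (5.12 to 15.2) and 36.9 (15.9 to 105), SAMD9L of 8.10 and 8.04, SAMD9 of 5.69 and 9.42 and PARP14 of 6.82 and 5.79. IRF1 (3.03 and 5.84), XAF1 (3.28 and 3.82) and UBE2L6 (2.00 and 5.34) were lower. The other 7 members did not reach 2-fold in both libraries. STAT2 had ratios of 2.04 (1.38 to 3.03) and 2.00 (1.33 to 2.97), SP100 of 1.94 and 2.83, IFI16 of 1.72 and 2.03 and PLSCR1 of 1.43 and 2.76. The intervals of IFI35 (1.23 and 1.40) and EIF2AK2 (1.06 and 1.41) included 1 in both libraries. LGALS3BP had 1.45 (1.21 to 1.75) and 1.10 (0.871 to 1.37). LGALS3BP was seen in 37.8% of poor and 52.1% of rich cells at 0 mM, and in 45.6% and 50% at 2 mM.

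**Figure D4:**
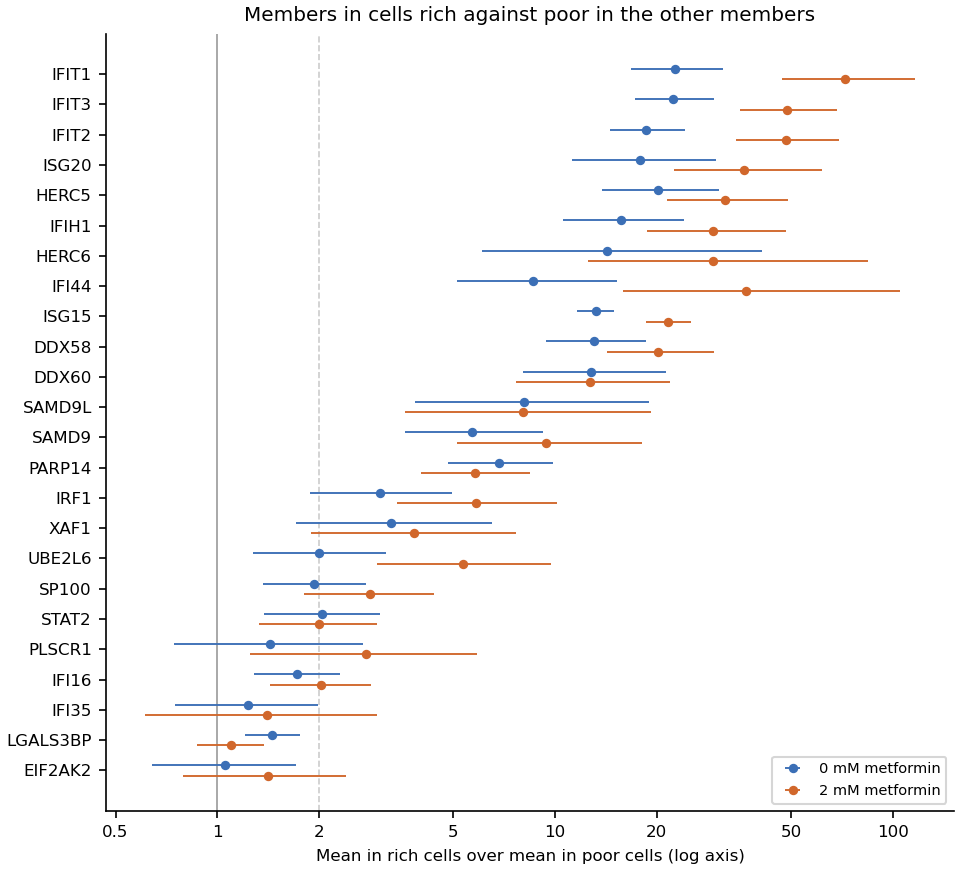
Mean UMIs in cells with 10 or more UMIs of the other members over the mean in cells with 0 to 4, on a log axis with counting intervals, for the 24 members that passed the minimum; the dashed line marks 2-fold. The ratios run from about 1 for EIF2AK2 to 22.7 (0 mM) and 72.1 (2 mM) for IFIT1.

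The ratio was larger at 2 mM than at 0 mM for 19 of the 24 members, beside 51.0% of all genes. For IFIT1, IFIT2, IFIT3, ISG15 and IFI44 the counting interval at 2 mM lay above that at 0 mM, beside 0.877% of genes, and it lay below for 0 members, beside 0.633%. These intervals are too narrow for clustered genes, so such a gap arises more easily for them than for most genes. The variance over the mean at 0 mM was 4.74 for IFIT1, 8.08 for ISG15 and 1.17 for IFI44, with a median of 1.05 over all genes. The sums that place cells are also largely shared among these members. In poor cells IFIT1 had 0.429 times the 0 mM level at 2 mM (46 and 22 UMIs), IFIT2 0.479, IFIT3 0.588 and ISG15 0.628. In rich cells the same genes had 1.36, 1.24, 1.27 and 1.03 times the 0 mM level. Over the 24 members the median dose ratio was 0.780 in poor and 1.27 in rich cells, and 1.005 and 1.02 over all genes. Past 1.5-fold, 8 members were lower in poor cells and 0 higher, beside 8.99% and 10.1% of genes. In rich cells 1 was lower and 2 were higher, beside 16.0% and 15.9%. The ranges are broad, and rich cells held a mean of 23.3 member UMIs at 0 mM and 27.5 at 2 mM, so cells of 1 range are not alike between doses.

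Members under the minimum rested on few counts. OAS1 had 2 thinned UMIs in poor and 24 in rich cells at 0 mM, a ratio of 22.4 (5.57 to 196), and OAS2 had a ratio of 19.2 (6.94 to 73.6) there and 22.7 (6.57 to 121) at 2 mM. DHX58 had 1 UMI in poor cells of each library and ratios of 41.1 (6.65 to 1697) and 56.1 (8.54 to 2372). IFIT5 had 2.31 (1.04 to 5.21) and 6.68 (3.39 to 13.6), well below its neighbour IFIT1, although its promoter shown above holds the ISRE core. IRF7 was level at 0.896 (0.377 to 1.99) and 1.45 (0.408 to 4.25). MX1 had 2.996 (0.864 to 11.6) and 13.4 (3.45 to 75.7). For IRF9, USP18, CMPK2 and TRIM22 too few UMIs were left after thinning for any pattern to be detectable.

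Set beside the promoters, the ISRE core was in 7 of the 9 members with a 10-fold ratio in both libraries and a promoter sequence. It was in 6 of the other 14 that passed the minimum. DDX58 and HERC6 had a 10-fold ratio and no match in this window. LGALS3BP, EIF2AK2 and PLSCR1 had a match and ratios under 3. A match describes letters in a window, and whether any of them is bound in these cells was not measured.

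Detection of a member was also more clustered than its mean implies. At 1000 UMIs ISG15 was seen in 50.3% of cells at 0 mM and 35.25% at 2 mM, where Poisson counts of its mean would give 90.1% and 78.7%. Without thinning it was seen in 72.8% (69.9% to 75.5%) and 52.6% (49.4% to 55.7%). IFIT3 was seen in 31.1% and 19.6% of thinned cells against 59.7% and 49.5% for Poisson counts, and in 52.9% and 33.3% of all cells. LGALS3BP was seen in 42.4% and 46.25% against 45.1% and 47.8%, close to Poisson counts. The variance over the mean was 1.5 or more in 9 of 24 members in each library, beside 3.39% of genes at 0 mM and 3.05% at 2 mM. No cell type that should lack these transcripts is in the libraries, so the share due to free RNA in the droplets was not measured.

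Members were compared in pairs by Pearson's r of log2(UMIs + 1) over the thinned cells, as a description without a test, since the cells share a library and a depth. Of 276 pairs of the 24 members, 108 (39.1%) had r of 0.1 or more at 0 mM and 124 (44.9%) at 2 mM, beside 0.549% and 0.747% of all 8423460 pairs of genes. The order of the doses turned at 2000 UMIs per cell (156 and 139 pairs) and with at most 10% mitochondrial UMIs (122 and 119). The median r was 0.07 and 0.08, and -0.001 and -0.002 over all pairs. The highest pairs were IFIT2 with IFIT3 (0.69 and 0.72) and IFIT1 with IFIT3 (0.60 and 0.76), genes of 1 cluster that share sequence. ISG15 followed with IFIT1 (0.58 and 0.64), from another chromosome. By mean r, IFIT1 with IFIT2 (0.54 and 0.67) and ISG15 with IFIT3 (0.57 and 0.62) came next, before ISG15 with ISG20 (0.52 and 0.64). A core chosen after the values were seen, of ISG15, IFIT1, IFIT2, IFIT3, ISG20, HERC5, IFIH1 and DDX58 thus stood out, with r of at least 0.27 at 0 mM and 0.44 at 2 mM in each of its pairs. STAT2, the transducer, had r of 0.12 and 0.12 with the sum of the others, and EIF2AK2 0.004 and 0.02. Most other pairs of low counts lay near 0, where r carries little weight at this depth.

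**Figure D5:**
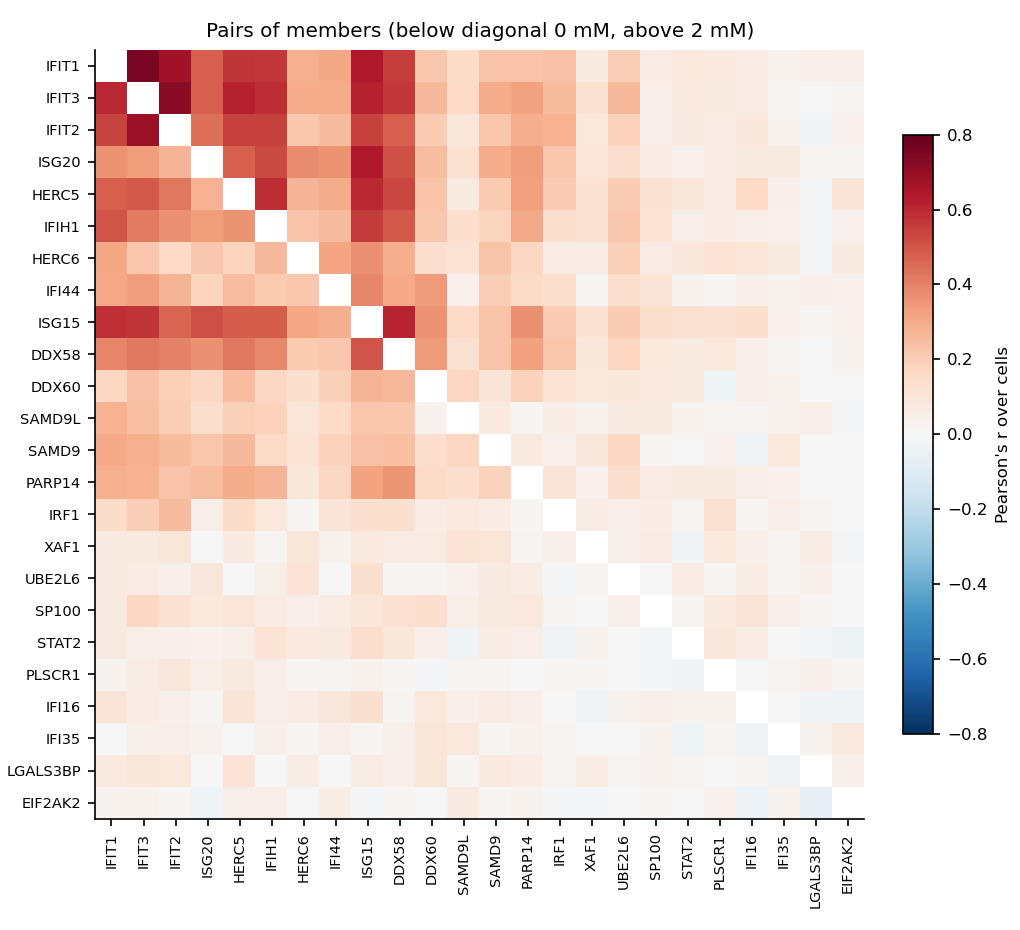
Pearson's r over cells of log2(thinned UMIs + 1) for the 276 pairs of members, 0 mM below the diagonal and 2 mM above it, ordered by the rich-over-poor ratio. The block at the upper left joins IFIT1, IFIT2, IFIT3, ISG20, HERC5 and IFIH1, ISG15 and DDX58 carry the same high values further along, and the pairs among the members from XAF1 on are near 0.

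Beside the members, a list of 40 symbols of interferon pathway genes was used, in which MB21D1 and TMEM173 stood under their newer symbols too. Of these symbols, 34 were in the table, and 16 of those genes passed the minimum. Past 1.5-fold, 3 were higher at 2 mM and 0 lower, beside 5.04% and 3.31% of all genes. These were the interferon lambda gene IFNL1 (72.7 and 114 CPM, 1.56, 1.34 to 1.82), the receptor gene IFNGR1 (63.8 and 127 CPM, 2.00) and RSAD2, which makes the antiviral protein viperin (33.4 and 76.3 CPM, 2.28). RSAD2 reached 50 CPM only at 2 mM, so it entered this count through the library where it was higher. IFNAR1 had 82.0 and 86.7 CPM (1.06) and JAK1 163 and 181 CPM (1.11). The IFNL1 UMIs came from 38 cells at 0 mM (3.8%) and 31 at 2 mM (3.13%), so the share of cells was not higher at 2 mM and a few cells carry the ratio. Receptor subunit IFNLR1 had 8 and 9 UMIs.

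Of these 16 pathway genes, 4 reached a rich-over-poor ratio of 2 in both libraries, beside 3.31% of all genes: OASL, RSAD2, ZC3HAV1 and IFNL1. OASL had 46.9 (28.1 to 84.7) and 86.7 (47.6 to 176), and ZC3HAV1, the zinc-finger antiviral protein, 8.98 and 9.39. RSAD2 had 1 and 2 UMIs in poor cells and ratios of 41.0 (6.62 to 1691) and 124 (33.0 to 1049). IFNL1 was found in 17 of 124 cells with 20 or more member UMIs at 0 mM (13.7%) and in 19 of 88 at 2 mM (21.6%). In poor cells it had 1 UMI at 0 mM and 0 at 2 mM, where its ratio was at least 108 against a floor of 3 counts over the group.

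The 10 genes outside the list with the highest mean r to the members' sum were OASL, CXCL10, RARRES3, IGFBP6, PMAIP1, PRSS23, B2M, CH25H, CXCL11 and SDC4, with r from 0.62 down to 0.37. CXCL10 and CXCL11 attract T cells, CH25H makes an antiviral oxysterol, PMAIP1 (NOXA) promotes apoptosis and B2M is the light chain of class I antigen presentation. These genes were picked by r with the same sum that sets rich and poor cells, so high ratios follow from the choice. CXCL10 had rich-over-poor ratios of 26.6 (14.1 to 56.7) and 89.2 (33.6 to 334). IGFBP6, an insulin-like growth factor binding protein, had 6.15 (5.12 to 7.41) and 7.29 (6.08 to 8.76), and PRSS23, a serine protease gene, 4.02 and 5.51.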

How the data were processed

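The authors deposited 1 table of whole UMI counts for 19826 genes in 2000 barcodes, 1000 per library. Per the submitters' processing notes, bcl2fastq, STAR 2.5.0a and hg19 were used. How barcodes were chosen, UMIs collapsed or strand used is not given in the sources used here, so counts of overlapping genes and of close relatives (IFIT, OAS, MX) are uncertain. UMIs were summed over cells and divided by the library total (CPM), not by gene length. Ratios have exact conditional Clopper-Pearson intervals and sums Poisson intervals, at 95%. No doublet caller was run on this single line. Cells were thinned with a fixed seed. The members, lists, thresholds and the rule for the 10 correlated genes were chosen with earlier results of these data known. Named genes were all members, a list of 40 interferon pathway genes and the 10 genes outside the list with the highest mean r to the members' sum. Of the pathway list, 1 gene is counted but not reported here by name. Where RefSeq listed several promoters of a gene, the first was used. DDX58 was matched as RIGI. Interval and ratio functions were tested on simulated data. Python 3.11.15, NumPy 2.4.6, SciPy 1.17.1 and, for TMM factors, edgeR 4.0.16 were used. Alternatives are given in the closing section.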

Additional observations from a re-analysis of the deposited data

How the results depend on the processing

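No paired analysis was possible because each dose has 1 library. The count of members 1.5-fold lower was 2 (IFI35 and DDX60) with a minimum of 1000 UMIs, with TMM factors and with cells weighted equally. With no minimum beyond 1 UMI per library, 1 member was 1.5-fold higher (MX2) and 2 lower (IFI35 and IFI44L). The summed ratio was 0.828 with the 5% deepest barcodes removed, 0.825 with TMM factors, 0.829 with cells weighted equally and 0.930 without ISG15. The share of rich cells was 12.9% and 11.2% at 500 UMIs (-1.70 points, bounds -5.83 to 2.45) and 40.7% and 27.9% at 2000 UMIs. It was 47.1% and 29.4% for 5 or more UMIs (-17.8 points), 13.1% and 11% for 20 or more (-2.14 points), and 21.2% and 15% without ISG15. The median r was 0.0474 and 0.0489 at 500 UMIs and 0.120 and 0.101 at 2000 UMIs. The counts of members with a 2-fold rich-over-poor ratio stayed from 17 to 20 under its alternatives. The median of that ratio at 2 mM was 13.2 at 500 UMIs and 13.6 with barcodes 1 base apart merged, against 8.73. The causes were not tested. Depth limits every share of cells, and with 1 library per dose none of these settings bears on the difference between cultures.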

Other observations

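At the other end of the correlations, the 10 genes with the lowest mean r to the members' sum, a list added after seeing the data, were ACTG1, MT-CO3, MT-CYB, MT-ND4, THBS1, PABPC1, RPL23, TUBA1B, CNN3 and MT-CO1. Lower levels in rich cells follow from that choice, since rich and poor are set by the same sum. The cytoplasmic actin gene ACTG1 had r of -0.255 at 0 mM and -0.255 at 2 mM. It had 0.509 (0.441 to 0.586) and 0.5004 (0.413 to 0.602) times the level of poor cells in rich ones. The matrix protein gene THBS1 had 0.120 (0.0507 to 0.244) and 0.284 (0.166 to 0.458) times that level, and the tubulin gene TUBA1B 0.496 and 0.661. ACTG1 and the tubulin and ribosomal protein genes have processed copies, so their counts are uncertain. All cells were thinned to the same number of UMIs, so a higher share of some genes lowers that of others.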
